A study of Mus musculus with 24 samples.

Results

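Promoter regions that carried H3K27ac in every group were described in mouse liver, in both sexes of B6 (C57BL/6J) and CAST (CAST/EiJ), inbred strains that come from different subspecies. H3K27ac is the acetylation of lysine 27 of histone H3, mapped here by ChIP-seq, in which chromatin fragments are pulled down with an antibody and sequenced. The 4 groups were B6 males, B6 females, CAST males and CAST females, the order in which 4 values stand below, each of 5 livers from mice 8 weeks old with 1 input control, which makes 20 livers and 4 inputs in 24 samples. The files used were 4 peak lists, 1 per group, each called on the 5 livers together, so no value below has a spread between mice and no test between groups was possible. Overlapping peaks of the 4 lists (1 bp or more) were merged into 117616 autosomal union regions, of which 47477, or 40.4%, had a peak in all 4 lists. A promoter region was chosen by these measured peaks: it was one that all 4 lists shared, that was under 5000 bp wide and lay within 2500 bp of the start of a protein-coding transcript in the mm9 annotation. The rule kept 14773 promoter regions, 31.1% of the regions in all lists. The other 32701 regions with a peak in all 4 lists lay farther from a start and are called distal.

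The livers were whole tissue, so values average over hepatocytes and the other cells of the liver, and fewer cells with the mark cannot be told apart from less of the mark per cell. The strain field of the labels follows sex, with CAST given for all females and B6 for all males, and so goes against the titles of B6 females and CAST males. The titles, the names of the peak lists and the sample sheet of the study give the same groups, and these were used. Over the promoter regions, the log2 ratio of fold enrichment had its smallest SD between B6 males and B6 females (0.175) and between CAST males and CAST females (0.182). It was 0.197 between the males of the strains, 0.236 between their females, and 0.228 and 0.215 for the pairs that differ in both sex and strain.

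A promoter is the stretch of DNA around a transcript start where RNA polymerase II and its general factors assemble. Nucleosomes that flank an active start are acetylated at H3K27 by the coactivators CBP and p300, while the start itself is held open, so the mark commonly lies on both sides of a gap. In mammals, genes used by nearly every cell tend to start in CpG islands, stretches that keep many CG dinucleotides, and many genes of a single tissue start in CpG-poor DNA and carry motifs of that tissue's factors. In mouse liver, sex differences arise mainly from the sex-specific pattern of growth hormone pulses, which act through STAT5.

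The promoters below were chosen to show the sequence classes and the regions that the results turn on. Each is the 250 bases before the transcript start nearest to the region, read 5′ to 3′ on the gene's strand from the mm9 genome (NCBIM37), which is the B6 sequence. Capitals mark each CG dinucleotide, and in Alb they mark CCAAT boxes instead. The first 2 belong to promoter regions of the highest signal, Exo1, a DNA repair exonuclease (chr1:177810659-177810908, plus strand, 19 CG), and Med16, a Mediator subunit (chr10:79371644-79371893, minus strand, 7 CG).
Exo1: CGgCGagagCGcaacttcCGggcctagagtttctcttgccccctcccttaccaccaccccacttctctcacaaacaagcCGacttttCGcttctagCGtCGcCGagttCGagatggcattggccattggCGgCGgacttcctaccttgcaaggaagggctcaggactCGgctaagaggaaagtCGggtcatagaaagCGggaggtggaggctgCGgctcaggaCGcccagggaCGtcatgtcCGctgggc
Med16: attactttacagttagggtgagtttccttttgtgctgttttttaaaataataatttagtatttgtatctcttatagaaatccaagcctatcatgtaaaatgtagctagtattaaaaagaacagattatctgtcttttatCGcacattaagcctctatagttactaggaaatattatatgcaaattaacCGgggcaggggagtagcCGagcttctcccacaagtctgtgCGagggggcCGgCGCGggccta
The third is Alb, which encodes albumin and starts in CpG-poor DNA (chr5:90889665-90889914, plus strand). Its capitals mark 2 CCAAT boxes, whose leftmost bases lie at -75 and, on the opposite strand, at -34 from the start.
Alb: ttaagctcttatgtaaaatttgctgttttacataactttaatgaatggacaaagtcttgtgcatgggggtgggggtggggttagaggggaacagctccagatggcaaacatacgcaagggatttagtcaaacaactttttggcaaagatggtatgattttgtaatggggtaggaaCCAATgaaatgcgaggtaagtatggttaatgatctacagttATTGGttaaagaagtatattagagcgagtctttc
The next 2 lie at promoters with more H3K27ac fragments at the summit in males, a measure defined below as the pileup. They are C6, a complement component (chr15:4677034-4677283, plus strand, 7 CG), and Cml5, an N-acetyltransferase-like gene (chr6:85770967-85771216, minus strand, 3 CG).
C6: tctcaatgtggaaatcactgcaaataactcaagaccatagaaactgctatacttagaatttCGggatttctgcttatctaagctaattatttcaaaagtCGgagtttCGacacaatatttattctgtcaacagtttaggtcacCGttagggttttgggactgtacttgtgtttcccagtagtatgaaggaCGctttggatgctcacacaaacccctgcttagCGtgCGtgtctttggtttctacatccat
Cml5: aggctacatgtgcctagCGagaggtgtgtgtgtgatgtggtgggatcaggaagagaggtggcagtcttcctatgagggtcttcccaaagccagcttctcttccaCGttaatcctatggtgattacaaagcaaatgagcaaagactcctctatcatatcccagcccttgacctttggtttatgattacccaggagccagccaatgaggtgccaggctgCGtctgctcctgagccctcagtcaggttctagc
The next 2 lie at promoters with a higher pileup in females, but not in the set higher in females by fold enrichment. They are Acot3, an acyl-CoA thioesterase (chr12:85392851-85393100, plus strand, 2 CG), and Cux2, a homeobox repressor (chr5:122500112-122500361, minus strand, 38 CG).
Acot3: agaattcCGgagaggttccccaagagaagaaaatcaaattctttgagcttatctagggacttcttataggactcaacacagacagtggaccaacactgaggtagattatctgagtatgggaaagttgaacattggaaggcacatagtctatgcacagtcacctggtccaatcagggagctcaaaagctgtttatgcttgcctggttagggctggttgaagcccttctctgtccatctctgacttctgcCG
Cux2: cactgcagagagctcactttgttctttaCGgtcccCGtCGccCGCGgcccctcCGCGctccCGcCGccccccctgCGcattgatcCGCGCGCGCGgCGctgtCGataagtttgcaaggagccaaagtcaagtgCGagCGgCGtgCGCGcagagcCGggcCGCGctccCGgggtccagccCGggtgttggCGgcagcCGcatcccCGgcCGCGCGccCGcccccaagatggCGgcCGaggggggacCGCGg
The last 2 differ between strains, Lrrc39, a leucine-rich repeat gene (chr3:116265646-116265895, plus strand, 4 CG), and Tekt1, a tektin of cilia (chr11:72175376-72175625, minus strand, 18 CG).
Lrrc39: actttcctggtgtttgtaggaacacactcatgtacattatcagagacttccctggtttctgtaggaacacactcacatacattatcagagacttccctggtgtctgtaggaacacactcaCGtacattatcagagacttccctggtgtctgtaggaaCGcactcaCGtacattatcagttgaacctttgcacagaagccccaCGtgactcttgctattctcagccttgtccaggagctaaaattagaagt
Tekt1: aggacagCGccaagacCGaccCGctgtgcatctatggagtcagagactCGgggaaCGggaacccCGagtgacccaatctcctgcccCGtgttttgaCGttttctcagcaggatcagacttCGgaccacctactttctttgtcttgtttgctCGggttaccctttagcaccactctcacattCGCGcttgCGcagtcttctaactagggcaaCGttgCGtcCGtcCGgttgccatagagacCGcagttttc
The Lrrc39 stretch holds a tandem repeat: at a shift of 45 bases, 71.2% of its bases equal the base one period on. In the other 8 stretches the best shift of 20 to 100 bases gave at most 37.1%.

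The lists held 79862, 82181, 90228 and 84645 peaks. The authors' fold enrichment is the height of the ChIP signal at a peak's summit over a local background, and a region takes the value of its highest peak. The peak lists do not give read depth. A peak's p-value and its fold together fix the number of fragments stacked at the summit, here called the pileup, and the background behind it. A region's pileup and background are those of its peak of highest pileup. In a region with several peaks this need not be the peak of highest fold enrichment. The recovered pileups were whole numbers within 0.05 for 99.94% to 99.98% of peaks, and for 14729 promoter regions in all 4 lists. The lowest background in the lists was 18.4, 18.7, 17.8 and 16.8 fragments. The background is local, and its ratio between lists moved with that of the pileup (Pearson r = 0.55 to 0.66 across promoter regions in the 4 comparisons, which share the same peaks), so the fold enrichment divides out part of a difference that spans a whole locus. Per the study's methods peaks were called over the input, but the lists do not say which signal gave the local background at a peak, and its source was not tested. Fold enrichment is the main measure, and the pileup was added after the data were seen.

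The rule used the presence and the width of peaks, so the levels of the promoter regions are given as a description. The median fold enrichment of promoter regions was 4.41, 4.48, 4.74 and 4.36, and single values ran from 1.30 to 20.4. Their median pileup was 248, 244, 267 and 207 fragments in the same order, over a median background of 47.9, 46.6, 48.3 and 40.2. Distal regions had a median fold enrichment of 2.77 to 2.96, a median pileup of 89 to 104 and a median background of 28.2 to 32.1. Promoter regions had a median width of 1570 bp (247 to 4983 bp), against 1263 bp for distal regions. Of 21410 autosomal protein-coding genes, 12364 (57.7%) had a start near a promoter region, 7249 (33.9%) had no peak near any start in any list and 1797 (8.4%) had only peaks that did not meet the rule. Most promoter regions, 13018 of them, lay near the starts of 1 gene, 1701 lay near 2, 52 near 3 and 2 near 4.

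The limits of the rule passed through a continuum. Ninj1 (4983 bp) and Scly (4982 bp), a selenocysteine lyase, were the widest regions kept, with a fold enrichment of 2.44 to 3.07 and 3.31 to 3.85 over the lists. The regions of Midn (5005 bp), Slc38a3 (5223 bp), an amino acid transporter, and Mtss1 (5737 bp) were the only ones near a start that were left out for width, with 1.82 to 2.67. At the distance limit, the regions of Dap3 and B4galt6 lay 2500 bp from a start, and that of Tmem19 lay 2503 bp away and was left out.

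H3K27ac peaks at promoters sat mostly downstream of the start. The highest summit of a promoter region lay a median 150 bp downstream of the nearest start in B6 males, and 145, 147 and 148 bp in the other lists. It was downstream in 65.9%, 66.0%, 65.9% and 65.3% of promoter regions, with 25.6% to 27.1% in the first exon and 34.2% to 35.1% in the first intron. The share of promoter regions with a peak over a given position was highest 200 bp into the gene, at 73.0%, 72.9%, 73.2% and 71.7%. It was lower at the start itself, at 65.9% (95% Wilson confidence interval 65.1 to 66.6, counting error only), 64.3% (63.5 to 65.1), 65.1% (64.3 to 65.8) and 61.2% (60.4 to 62.0). Upstream the share passed through a dip at 150 bp before the start in B6 males and females and CAST males, and at 100 bp in CAST females (60.6%, 58.3%, 59.2% and 55.3%), and was 61.6%, 60.5%, 60.8% and 58.1% at 250 bp before it. A dip before the start was thus present in all 4 lists, and it was deepest in the CAST female list, in which 12.97% of promoter regions held several peaks, against 5.63%, 9.63% and 9.59% in the others. The median pileup was also lowest in the CAST female list, and the part of depth in the dip was not tested. The rule set a distance from the start, so a high share near it is partly fixed by the rule, but the rule had no direction.

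**Figure D1:**
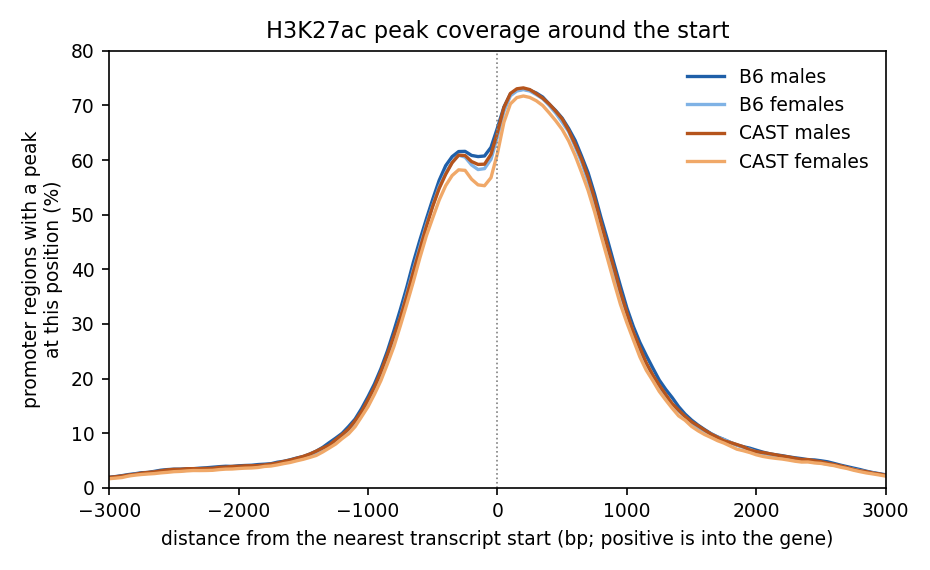
Share of the 14773 promoter regions with an H3K27ac peak at each position around the nearest transcript start (y axis, percent; x axis, bp, with positive values into the gene), 1 line per peak list. All 4 lines are asymmetric, with a maximum of 71.7% to 73.2% at 200 bp into the gene and a dip just before the start.

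CpG content separated promoter regions by the strength of the mark. A start was called CpG-rich when the 1000 bases around it had at least 0.6 of the CG expected from base composition and at least 50% G and C, and CpG-poor when the ratio was under 0.4. By this measure 9394 promoter regions (63.6%, 95% Wilson interval 62.8 to 64.4) were CpG-rich, 2288 (15.5%) intermediate and 3091 (20.9%) CpG-poor. Over all 44018 protein-coding starts on the autosomes the CpG-rich share was 44.5%, and it was 10.4% over the 13798 starts with no peak in any list. CpG-rich promoter regions had a median fold enrichment of 5.18, 5.30, 5.59 and 5.15, while CpG-poor ones had 2.79, 2.83, 3.001 and 2.84. The median pileup was 287, 284, 313 and 237 fragments at CpG-rich and 145, 143, 152 and 125 at CpG-poor promoter regions, whereas the background differed less (41.7 to 50.5 against 37.2 to 43.4). Pairs of genes that start within 1000 bp of each other on opposite strands shared 1123 promoter regions. Of the promoter classes, these divergent pairs had the highest medians, with a fold enrichment of 5.44 to 5.86 and a pileup of 256 to 334. They overlap the CpG classes: 84.1% of them were CpG-rich, against 61.9% of the other promoter regions.

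Short motifs were counted in the 250 bases before to 50 bases after the start of each promoter region, on both strands unless stated. The letters GGGCGG of the GC box, bound by SP factors, were present in 60.9% of promoter regions, 44.5% of all starts and 17.2% of starts with no peak. The ETS core CCGGAA was present in 23.6%, 17.9% and 5.70%, the NRF1 letters GCGCATGC in 4.25%, 3.24% and 0.732%, and the YY1 letters AAGATGGCG in 2.76%, 1.93% and 0.362% in the same order. These motifs hold CG themselves and go with the CpG content above. The CCAAT box, which holds none, was about as frequent at promoter regions (36.5%) as at all starts (35.3%) and at starts with no peak (35.8%). A TATAAA on the gene's strand between 40 and 20 bases before the start was less frequent at promoter regions (1.103%) than at starts with no peak (3.01%). Of the motifs counted, the YY1 letters had the promoter regions of highest median fold enrichment (6.36, n = 408), followed by the NRF1 letters (5.93, n = 628). The letters CAAAGTCCA of HNF4A, a hepatocyte factor, were in 1.71% of CpG-poor and 0.234% of CpG-rich promoter regions. The shares were 2.46% and 0.149% for HNF1 (GTTAATNAT) and 4.66% and 2.001% for FOXA (TGTTTAC). Those of CEBP (TTGCGCAA) went the other way, at 0.194% and 0.341%. The FOXA letters were less frequent at promoter regions (2.62%) than at starts with no peak (3.68%). The part of base composition in these shares was not tested. A match is a description of the letters and was not taken as binding.

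By mean percentile over the lists the promoter regions of highest signal were those of Btbd9, Med16, Hdhd2, Exo1, Nol7, a nucleolar protein, and Yeats4, a reader of acetylated histones. Exo1 reached a fold enrichment of 18.4, 17.62, 20.4 and 15.98, from pileups of 456, 413, 519 and 362. Btbd9 reached pileups of 628, 573, 927 and 779 but a fold enrichment of 8.08 to 9.51. All 6 are CpG-rich by the 1000-base window, although the 250 bases of Med16 shown above hold 7 CG and those of Exo1 19. The weakest promoter regions were those of Col4a2, Emp1, Osmr, Slc45a4, Lcn12 and Pdzd7, with fold enrichments of 1.57 to 2.29 and pileups of 34 to 64. 5 of these 6 were CpG-poor, and the exception was Osmr, the oncostatin M receptor. Col4a2, a collagen of the basement membrane, had pileups of 45, 41, 38 and 35.

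Lists of genes with known roles showed 2 kinds of strong promoter, one with a low and one with a high background. Values here are medians over the genes of a list of the mean over the 4 lists, at the region nearest to a start, and over all promoter regions they were a fold enrichment of 4.49, a pileup of 241.8 and a background of 46.0. Of the genes of general cell functions, 20 of 20 cytosolic tRNA synthetases, 26 of 26 Mediator subunits, 66 of 75 ribosomal proteins, 69 of 73 mitochondrial ribosomal proteins, 36 of 38 proteasome subunits, 11 of 12 RNA polymerase II subunits and 70 of 81 nuclear genes of the respiratory chain had a promoter region. Their fold enrichment was 6.65, 7.06, 6.13, 7.01, 6.50, 5.74 and 6.62, with pileups of 258 to 339.8 and a background of 33.9 to 51.1. Zinc finger protein genes, many of which encode KRAB repressors, had a promoter region in 263 of 333 cases, with a fold enrichment of 6.52. The tRNA synthetase Dars, for aspartate, had pileups of 447, 471, 485 and 412 over a mean background of 43.2.

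Plasma protein genes of hepatocytes had a promoter region in 29 of 30 cases, of which 2 were CpG-rich. Their median pileup of 260 was above that of all promoter regions, but their background of 105.7 was higher still, and their fold enrichment was 2.48. Apoa1, the main protein of HDL, had pileups of 279, 249, 323 and 259 and a mean background of 169.7, which left a mean fold enrichment of 1.63. Apoe showed the same pattern, with pileups of 316, 297, 350 and 297 over 169.8. At Alb the nearest promoter region ended 273 bp before the start, with pileups of 236, 209, 209 and 251 and a fold enrichment of 2.58 to 3.02, and a second lay 667 bp downstream of it. The start of Alb printed above was therefore covered by neither. Serpina1a, which has near-identical copies, had no peak, and only uniquely mapped reads had been kept.

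Hepatocyte transcription factors had a promoter region in 23 of 24 cases, with a median pileup of 336, a background of 112.4 and a fold enrichment of 2.97. Xbp1, a factor of the secretory pathway, had pileups of 496, 483, 600 and 491. Cebpa, a master factor of hepatocyte metabolism, had 343, 391, 402 and 330 over a mean background of 179.7. All 20 genes of growth hormone signalling and its sex-dependent regulators had a promoter region (fold enrichment 3.96, pileup 297.6, background 76.1), as did all 20 immediate early genes and all 20 circadian clock genes. The pileup and the fold enrichment thus order these lists differently, and the plot of pileup against background shows where they part.

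**Figure D2:**
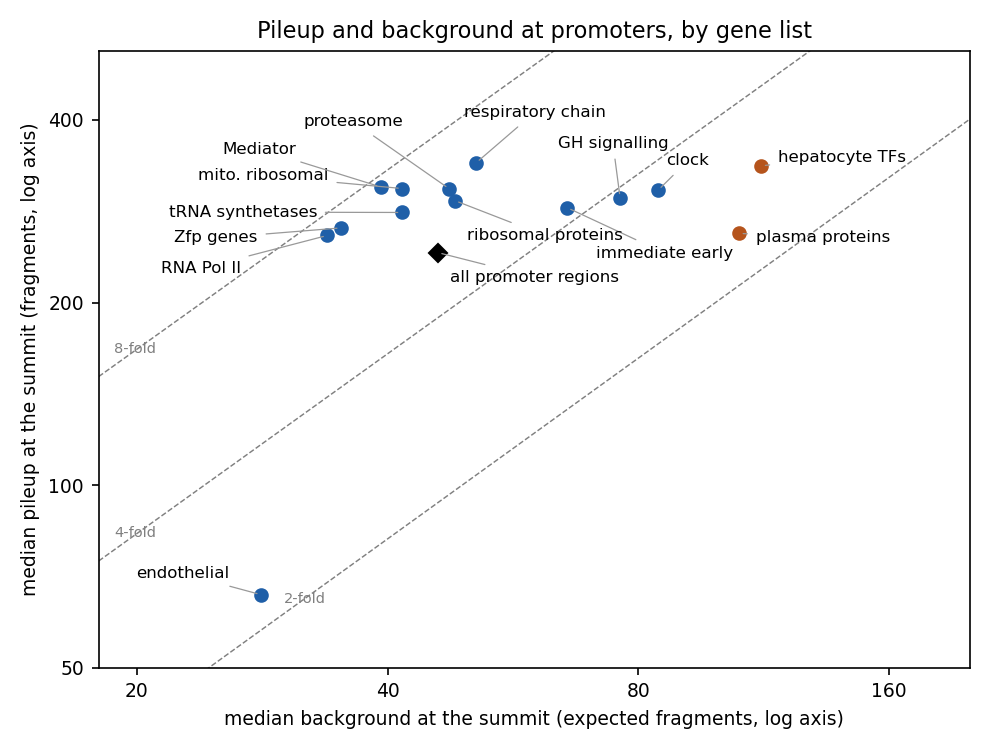
Median pileup at the summit (y axis, fragments, log scale) against median background (x axis, fragments, log scale) for the promoter regions of 14 gene lists and, as a diamond, of all promoter regions; dashed lines mark a constant fold of 2, 4 and 8. General lists stand between a background of 33.9 and 51.1, and plasma proteins and hepatocyte factors (orange) above 100, at similar pileups, and endothelial markers lie lowest.

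Marker genes of macrophages, stellate cells and lymphocytes mostly had no promoter region, while most of those of endothelium had a weak one. Endothelial markers were present in 10 of 12 cases, with a median pileup of 66 and a fold enrichment of 2.35. Pecam1, an adhesion molecule of endothelium, had pileups of 62, 56, 66 and 54, and Cdh5, VE-cadherin, had 55, 55, 59 and 63. Where macrophage and stellate cell markers had one, its median fold enrichment was 5.17 and 5.68, above the 4.49 of all promoter regions, and its pileup was 133 and 149.8, below their 241.8. Of 11 annotated Kupffer cell and macrophage markers 3 had a promoter region (Cd68, Csf1r and Cd14), of 12 stellate cell and fibroblast markers 1 (Reln), of 14 lymphocyte markers 3 (Cd4, Cd79b and Lck), and of 10 cholangiocyte markers 5. The remaining markers had only peaks that did not meet the rule, or no peak near a start in any list. These were 1 and 7 for macrophages, 6 and 5 for stellate cells and fibroblasts, 1 and 10 for lymphocytes, and 1 and 4 for cholangiocytes. Among those with no peak were Emr1, Marco, C1qa, Des, Pdgfrb, Cd3e, Krt7 and Krt19. Among genes of other tissues, 1 of 13 neuronal genes, 1 of 17 muscle genes, 4 of 1081 olfactory receptors, 0 of 318 vomeronasal receptors and 1 of 41 beta-defensins had a promoter region. None of the 14 endothelial, macrophage and stellate cell promoter regions was past 1.5-fold between the sexes of B6 by pileup. In CAST 1 of them was, Stab1, with 93 in males and 46 in females. Of all promoter regions 1.63% were past it in B6 and 1.80% in CAST, in either direction.

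The sexes were compared within each strain as the ratio of male to female values, centred on the median over all 47477 regions in all lists. The centring removed log2 shifts of -0.01 in B6 and 0.08 in CAST for the fold enrichment, and of 0.03 and 0.28 for the pileup. Since a region had to be called in all 4 lists, a promoter that lost its peak in 1 sex could not be included, and large differences are underrepresented. Most promoter regions changed little: 93.3% in B6 and 92.3% in CAST were within 5/4-fold by fold enrichment, and 89.9% and 86.2% by pileup. By fold enrichment, 45 promoter regions (0.305%) were at least 1.5-fold higher in B6 males and 30 (0.203%) in B6 females, against 0.769% and 0.354% of all regions in all lists. In CAST, 75 (0.508%) were higher in males and 26 (0.176%) in females, against 0.752% and 0.493%. By pileup the counts were 114 (0.774%) and 126 (0.855%) in B6, against 2.18% and 1.73%, and 133 (0.903%) and 132 (0.896%) in CAST, against 1.48% and 3.04%. The shares of promoter regions were thus below those of all regions in each of these 8 counts.

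Few promoter regions passed 1.5-fold in the same direction in both strains, which share no liver. By fold enrichment 4 were higher in males of both (0.0271%, against 0.0653% of all regions) and 3 in females (0.0203%, against 0.0253%). By pileup 17 were higher in males (0.115%, against 0.367%) and 30 in females (0.204%, against 0.435%). Of the 4 and 17 male regions 3 were the same, or 3 in 4 of the first set and 17.6% of the second, and of the 3 and 30 female regions 0 were the same. When the pileup was instead scaled by the lowest background of each list, a choice made after the data were seen, the counts were 40 and 14. The direction of the 17 and 30 regions could not change, since the scalings differ by a constant per strain that is smaller than the threshold. Across promoter regions, the pileup ratio of B6 and that of CAST correlated weakly (r = 0.14, Spearman correlation 0.06, n = 14729), and less than across distal regions (r = 0.27, n = 32673). The correlation was 0.26 across CpG-poor and 0.09 across CpG-rich promoter regions. By fold enrichment, the main measure, it was 0.056 across promoter regions (Spearman correlation 0.045, n = 14773) and 0.11 across distal regions. It was then 0.074 across CpG-poor and 0.064 across CpG-rich promoter regions, so the classes differed less. These points share their 4 lists and are not independent, and CpG-poor regions have lower pileups and so larger counting error.

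CpG-poor promoters made up most of the sex-differing sets by pileup, but not by fold enrichment, where 2 of the 4 male and 0 of the 3 female regions were CpG-poor. Of the 17 promoter regions with higher pileup in males of both strains, 13 were CpG-poor, and of the 30 with higher pileup in females 18 were, against 20.9% of all promoter regions. In B6, 3.66% of CpG-poor and 0.961% of CpG-rich promoter regions were past 1.5-fold in either direction by pileup. Because low pileups vary more, the shares were also taken over promoter regions with a pileup of at least 100 in all lists, where they were 1.34% and 0.195% in B6. In CAST they were 0.818% and 0.367%, and intermediate promoter regions had 1.16%, so the CpG-poor class was not the highest there.

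The male set held genes of the male-biased liver program beside genes better known from other tissues. At C6 the pileup was 286 in B6 males and 196 in CAST males, against 84 in B6 females and 51 in CAST females. Both male lists stood above both female lists, by 3.34-fold in B6 (95% exact interval 2.61 to 4.32, counting error only) and 3.18-fold in CAST (2.32 to 4.41) after centring. Cml5 had 119 and 97 fragments in males and 40 and 34 in females, a ratio of 2.92 in B6 (2.03 to 4.29) and 2.36 in CAST (1.58 to 3.59). Cyp2d9, a male-biased cytochrome P450 that has near-identical neighbours, had 130 and 123 in males and 61 and 37 in females. Selenbp2, a selenium-binding protein, had 109 and 131 in males and 62 and 42 in females.

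The other male regions with the largest ratios were those of 2810007J24Rik, Zmynd8, Ncam2, Fgfr1, Bdnf and Mfn1. Zmynd8, a reader of acetylated histones, had 187 and 121 fragments in males and 88 and 52 in females. Ncam2, a neural cell adhesion molecule with a CpG-rich start, had 123 and 113 in males and 64 and 39 in females. At Ncam2 the fold enrichment separated the sexes too, with 5.64 and 6.07 in males and 3.30 and 2.24 in females. Fgfr1, a fibroblast growth factor receptor, had 128 and 99 against 47 and 46. In all 10 regions named here both male pileups were above both female pileups. At 6 of these 10 the female background equalled the lowest of the list in CAST.

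The female set held fatty acid and xenobiotic metabolism genes and the repressor Cux2. Nt5e, which encodes the ecto-enzyme CD73, had 2 promoter regions in the set. The first had 86 and 120 fragments in B6 and CAST males and 279 and 167 in females, and the second had 65 and 80 in males and 173 and 141 in females. At the second, the female value was 2.71 times the male one in B6 (95% exact interval 2.03 to 3.66) and 2.13 times in CAST (1.61 to 2.84). Acot3 had 77 and 65 in males and 161 and 125 in females, a ratio of 2.13 (1.61 to 2.83) and 2.33 (1.71 to 3.19). Its neighbour Acot4, another acyl-CoA thioesterase, had 73 and 76 in males and 139 and 107 in females. Cyp2b10, a phenobarbital-inducible cytochrome P450, had 77 and 58 in males and 158 and 133 in females.

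Cux2, known as a female-specific repressor of male-biased liver genes, is CpG-rich, as its sequence above shows. It had 79 and 109 fragments in B6 and CAST males and 190 and 160 in females, a female to male ratio of 2.45 (1.88 to 3.23) and 1.78 (1.38 to 2.29). The set also held Lepr, the leptin receptor (125 and 160 in males, 211 and 210 in females), Cyp4a14, a fatty acid hydroxylase (110 and 62, 164 and 121), 2 regions of Cyp2c29, Abcd2, a peroxisomal transporter, Acnat2, and Dio3, a thyroid hormone deiodinase (86 and 86, 142 and 145). At Cyp2b10 and Acot4 the background moved with the pileup, for Cyp2b10 28.2 and 17.8 in males and 57.4 and 41.7 in females, and the fold enrichment did not separate the sexes. It was 2.67 and 3.14 in males and 2.72 and 3.14 in females at Cyp2b10.

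**Figure D3:**
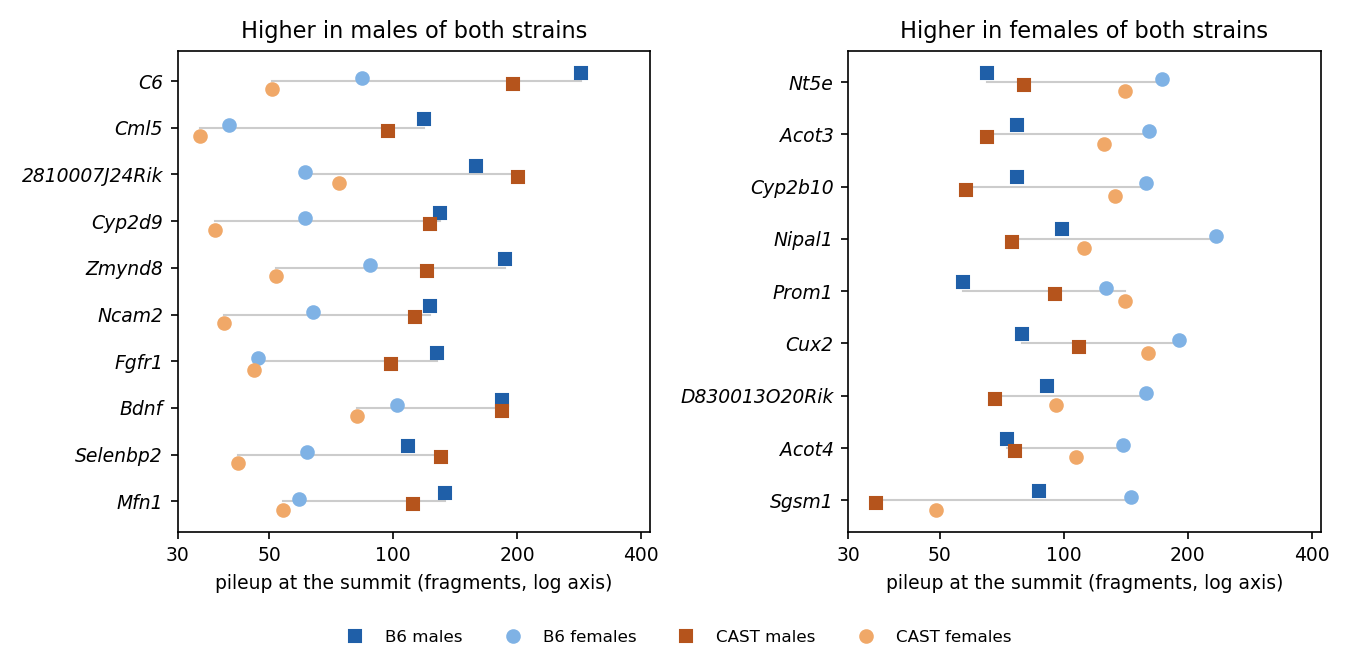
Pileup at the summit (x axis, fragments, log scale) in the 4 peak lists for the 10 promoter regions with the largest ratio (by the smaller of the strains) in males of both strains (left) and 9 of the 10 in females of both strains (right); squares are males, circles females, blue B6 and orange CAST. In the left panel both squares lie to the right of both circles in each row, and in the right panel both circles lie to the right of both squares in every row but that of Sgsm1.

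The 3 promoter regions higher in females of both strains by fold enrichment were those of 1110057K04Rik, Ttc39c and Cabyr. Of these 3, 2 lay near a gene that the study lists as male-biased in mRNA, and 0 near a female-biased one. Over all 14773 promoter regions, 226 lay near a male-biased and 287 near a female-biased gene. By pileup, 9 of the 17 male regions lay near a male-biased gene, and 17 of the 30 female regions near a female-biased one. Ttc39c had pileups of 360 and 434 in B6 and CAST males and 418 and 409 in females, but a fold enrichment of 1.82 and 1.89 in males and 3.08 and 2.83 in females. Cabyr, a calcium-binding protein of sperm, had pileups of 174 and 164 in males and 255 and 256 in females, with a fold enrichment of 3.72 in CAST males against 6.11 and 6.30 in females. Of the 4 male regions by fold enrichment, those of Ncam2, Zmynd8 and Gpr133 were also in the pileup set, and that of Prickle2 had pileups of 67 and 63 in males and 40 and 35 in females.

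Promoter regions of genes that the study lists as sex-biased in mRNA mostly had a higher pileup, but not fold enrichment, in the sex with more mRNA. The mRNA came from livers of the same groups, so the lists are not independent evidence of the direction. Of 72 annotated genes with female-biased mRNA in both strains, 50 had a promoter region and 12 had no peak near a start. At these 50, the pileup was higher in females at 49 in B6 and at 48 in CAST, with a median log2 ratio of male to female of -0.41 and -0.46, against -0.01 and 0.08 over all promoter regions. Of 62 annotated genes with male-biased mRNA in both strains, 41 had a promoter region and 40 of these a recovered pileup. The pileup was higher in males at 32 of the 40 in B6 and at 32 in CAST, with medians of 0.26 and 0.31, where 47.5% and 66.1% of all promoter regions were higher in males. With scaling by the lowest background the female list kept 48 in B6 but 37 in CAST (medians -0.36 and -0.26), and the male list had 35 and 39 (0.31 and 0.51), where all promoter regions had medians of 0.04 and 0.27 and 59.8% and 90.1% were higher in males.

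A part of these regions moved by 1.5-fold in the direction of the list, a larger share than of all promoter regions (0.774% to 0.903% per direction and strain). In the female list 16 in B6 and 17 in CAST of 50 were past it, 9 in both, and in the male list 12 of 40 in B6 and 12 in CAST, 6 in both. The fold enrichment showed no such split, with medians of -0.01 and 0.01 in the female list and -0.02 and -0.05 in the male list. Instead the background itself was higher in females at 50 and 49 of the 50 female-list regions and higher in males at 36 and 35 of the 40 male-list regions.

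For genes sex-biased in mRNA of 1 strain only, the pileup followed the strain less clearly. At promoter regions of genes female-biased in B6 only, the median log2 ratio was -0.23 in B6 and -0.10 in CAST. At the 73 of genes male-biased in B6 only it was 0.23 and 0.14. At the 72 of genes female-biased in CAST only it was -0.08 in B6 and -0.15 in CAST, and at the 52 of genes male-biased in CAST only 0.07 and 0.22. With scaling by the lowest background, the CAST medians of both single-strain female lists changed sign, to 0.10 and 0.04. The CAST median of all promoter regions rose with them, from 0.08 to 0.27, so both lists stayed below it. The difference between strains was not tested.

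**Figure D4:**
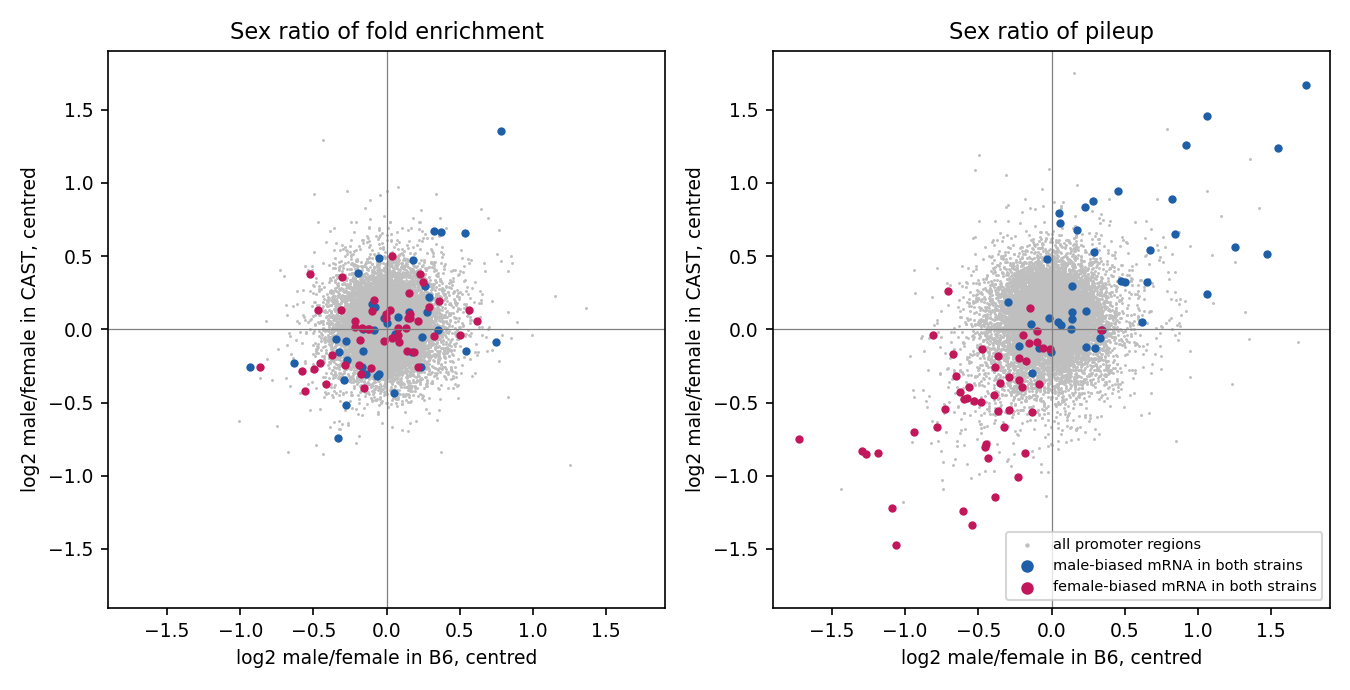
Centred log2 ratio of male to female in B6 (x axis) and in CAST (y axis) for all promoter regions (grey), by fold enrichment (left) and pileup (right), with the regions nearest to genes of male-biased (blue) and female-biased (pink) mRNA in both strains. In the pileup panel 32 of the 40 blue points lie above 0 on each axis, and 49 and 48 of the 50 pink points below it in B6 and CAST, whereas in the fold enrichment panel both colours spread around 0.

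Few genes of the growth hormone pathway passed 1.5-fold between the sexes, but none of those that did was higher in males. Of its 20 genes, none was past 1.5-fold higher in males by pileup, and 2 were past it in females in B6 (Cux2 and Tox, a nuclear factor of the HMG-box family) and 2 in CAST (Cux2 and Socs2, a feedback inhibitor of growth hormone signalling), against 0.855% and 0.896% of all promoter regions. Socs2 had 256 and 192 fragments in B6 and CAST males and 328 and 238 in females, so both strains had more in females (log2 ratio of male to female -0.38 and -0.59). The CAST ratio of Socs2 stood at the threshold and passed it only with the centring shift of 0.28. Scaling by the lowest background removes 0.08 instead, which leaves Socs2 within 1.5-fold in CAST. Tox had 193 in B6 males and 292 in B6 females but 297 in both sexes of CAST. Bcl6, a male-biased repressor, had the highest pileups of the list, 538, 615, 670 and 598. Before centring this was more in females of B6 and in males of CAST. After centring, Bcl6 was higher in females of both strains, within 1.5-fold. With scaling by the lowest background, it was again higher in males of CAST. Ghr, the receptor, had 350, 335, 398 and 309, Stat5b 296, 327, 322 and 225, and Igf1 301, 304, 372 and 268. For scale, between the sexes 0 of 29 plasma protein genes, 0 of 20 tRNA synthetases and 0 of 66 ribosomal protein genes passed 1.5-fold. This held in both strains, where 1.63% (B6) and 1.80% (CAST) of all promoter regions passed in either direction. Of 23 hepatocyte factors 1 did, Hnf4a in B6, with 154 in males and 86 in females, against 156 and 122 in CAST. The mean background at that region, 28.8, was low for the list.

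Several promoter regions differed between the sexes in only 1 strain by fold enrichment, a difference that was not tested. The largest ratio in B6 was at Fam171b, with 5.58 in males and 2.18 in females, while CAST had 10.5 and 9.01. Zfp641, a zinc finger gene, had 3.46 in B6 males and 6.35 in B6 females, against 3.57 and 4.26 in CAST. Cyp7b1, an oxysterol hydroxylase with male-biased expression, had 3.07 and 5.90 in B6 and 2.95 and 3.34 in CAST, but its pileup went the other way in B6 (363 in males and 283 in females). In CAST alone, Ces2c, a carboxylesterase, had 4.79 in males and 2.36 in females, against 4.86 and 4.87 in B6. Gm9222 had 7.56 and 2.92 in CAST and 10.7 and 14.6 in B6.

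The strains differed at more promoter regions than the sexes. By fold enrichment, with log2 shifts of -0.10 in males and -0.01 in females removed, 82 promoter regions (0.555%) were at least 1.5-fold higher in B6 males and 74 (0.501%) in CAST males, against 1.1% and 1.03% of all regions. Among females 220 (1.49%) were higher in B6 and 156 (1.06%) in CAST, against 1.99% and 2.38%. By pileup, with shifts of -0.09 and 0.16 removed, the counts were 251 (1.70%) and 228 (1.55%) in males, against 4.02% and 3.16%, and 587 (3.99%) and 400 (2.72%) in females, against 5.86% and 7.4%. Within 5/4-fold lay 90.7% of promoter regions in males and 85.9% in females by fold enrichment. In both sexes, 24 were higher in B6 (0.162%, against 0.36%) and 25 in CAST (0.169%, against 0.4%) by fold enrichment, and 145 (0.984%, against 2.13%) and 132 (0.896%, against 2.1%) by pileup. Here the measures overlapped more: 23 of the 24 and 23 of the 25 were in the pileup sets, or 15.9% and 17.4% of those sets.

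The strain ratio was also more alike between the sexes than the sex ratio between the strains. Across promoter regions, the B6 to CAST ratio in males and in females correlated with r = 0.52 for the pileup (Spearman correlation 0.39, n = 14729) and 0.37 for the fold enrichment. Across distal regions the values were 0.64 and 0.41. CAST reads had been aligned to a CAST genome and the peaks then converted to mm9, so any effect of that conversion would be shared by both sexes and cannot be told apart from a difference between the strains.

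Ranked by the smaller of the ratios in males and in females, the region farthest toward B6 by fold enrichment was that of Lrrc39. It had 6.09 and 7.31 in B6 males and females and 2.40 and 2.41 in CAST, from pileups of 117 and 151 against 44 and 42. The pileup ratio after centring was 2.84 in males (95% exact interval 1.99 to 4.11) and 3.22 in females (2.28 to 4.65). This is the start with the tandem repeat of 45 bases shown above, and how reads of CAST map to such a repeat was not tested. Irf5, an interferon regulatory factor, had 2 promoter regions higher in B6, one with 259 and 313 fragments in B6 males and females and 107 and 49 in CAST, the other with 196 and 251 against 81 and 54. Their background moved as well, from 81.8 and 97.8 to 40.5 and 21.9 at the first. Rarres1, a retinoid-responsive gene, had 221 and 237 against 84 and 46. Rab40b, a small GTPase of the Rab family, had 70 and 41 in CAST, and B6 was 2.47 times as high in males and 3.67 times in females after centring. 4930481A15Rik had 298 and 373 against 99 and 73.

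Toward CAST, Tekt1 came first by fold enrichment in the same ranking, with 2.74 and 2.08 in B6 males and females and 6.39 and 4.94 in CAST. Its pileups were 52 and 40 in B6 and 119 and 87 in CAST. By pileup, and again by the smaller of the ratios of the sexes, the largest was at Mcf2l, with 73 and 75 in B6 and 219 and 201 in CAST. There CAST was 2.81 times B6 in males (95% exact interval 2.15 to 3.72) and 2.99 times in females (2.28 to 3.95). Sult3a1, a sulfotransferase that is female-biased in liver, had 40 and 43 in B6 and 100 and 147 in CAST. Eci3, a peroxisomal enoyl-CoA isomerase, had 62 and 73 in B6 and 158 and 155 in CAST. Sidt1, a nucleic acid channel protein, had 71 and 64 against 193 and 167. Fam171b and Ankrd6 were lowest in B6 females (42 and 70), above that in B6 males (107 and 118), and highest in CAST females (195 and 155) and CAST males (256 and 273).

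**Figure D5:**
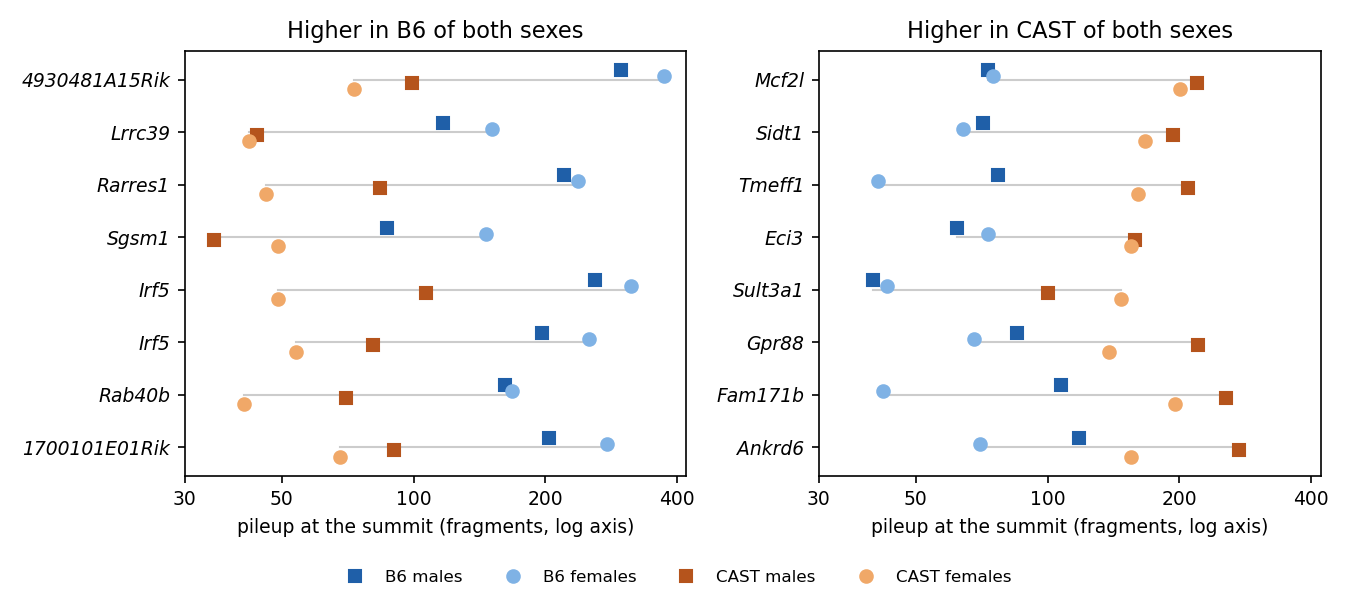
Pileup at the summit (x axis, fragments, log scale) in the 4 peak lists for the 8 promoter regions with the largest ratio (by the smaller of the sexes) toward B6 in both sexes (left) and toward CAST in both sexes (right); squares are males, circles females, blue B6 and orange CAST. In every row both lists of one strain lie to the right of both lists of the other.

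CpG classes of the strain sets are given by both measures, and the difference from the sex sets was not tested. Of the 145 promoter regions higher in B6 by pileup, 65 (44.8%) were CpG-poor and 51 (35.2%) CpG-rich, and of the 132 higher in CAST 50 (37.9%) and 49 (37.1%). Of all promoter regions, 20.9% were CpG-poor and 63.6% CpG-rich. By fold enrichment, 11 of the 24 regions higher in B6 were CpG-poor and 5 CpG-rich. Of the 25 higher in CAST by fold enrichment, 6 were CpG-poor and 12 CpG-rich. CpG-poor regions have lower pileups, which vary more, and the part of this in the pileup sets was not tested. Sgsm1 was in a strain set and in a sex set: its pileup was 87 and 146 in B6 males and females and 35 and 49 in CAST, so that it was higher in females of both strains and in B6 of both sexes. Of 20 immediate early genes, 1 was past 1.5-fold toward B6 in males and 2 in females by pileup, and 0 toward CAST, where all promoter regions had 1.70% and 3.99% toward B6 and 1.55% and 2.72% toward CAST. None of 26 Mediator, 66 ribosomal and 36 proteasome genes passed in either sex, and of 263 zinc finger genes 1 and 2 passed toward B6 and CAST in males and 6 and 3 in females.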

How the data were processed

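H3K27ac ChIP-seq was done on 20 mouse livers with 4 inputs (24 samples). Per the study's methods, the authors aligned reads with Bowtie2, to mm9 for B6 and to a custom CAST genome for CAST, and kept uniquely mapped reads. They pooled the reads of the 5 livers of a group, called peaks with MACS2 over the input, removed blacklisted peaks and peaks made of PCR duplicates only, and converted CAST peaks to mm9. The fold enrichment the authors deposited is a ratio of summit signal to local background. The deposited −log10 p is the caller's value for the same peak. The peak score the authors deposited follows the caller's q-value and was used, with ties broken by −log10 p, for the percentile of a peak within its list. The summit offset in the authors' lists gave the summit position. Read totals were not used here.

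Peaks were merged and analysed with Python 3.11.15, pandas 2.3.3, NumPy 2.4.6 and SciPy 1.17.1, and drawn with matplotlib 3.10.9. Starts came from GENCODE vM1 on NCBIM37 (mm9), and sequences from that genome. The members and gene lists were chosen with earlier results of these data known. Ratios were centred on the median of all regions in all lists, and 1.5-fold was the threshold. Regions were named by the nearest gene: the 10 of largest ratio in the same direction in both strains for each sex, 8 for each strain over both sexes, 5 each way in 1 strain alone, the 6 of highest and the 6 of lowest mean percentile, those at the limits of the rule, and the genes of the lists. The naming was done by fold enrichment and repeated by pileup. The remaining regions named from the sex sets by pileup, and the list genes given as examples, were picked after their values were seen. The pileup was recovered from the fold and the p-value, and it and its scalings were chosen after seeing the data. The recovery and the merging were tested on simulated data. Intervals on pileup ratios are exact (Clopper-Pearson) and cover counting error only. Of the study's mRNA tables only the gene names and directions were used. Some genes that the naming rule or the lists include are not reported here.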

Additional observations from a re-analysis of the deposited data

Results flagged for a closer look

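At 4 promoter regions a ratio was past 1.5-fold in opposite directions in the strains or in the sexes, and none of these differences was tested. At a second region of Cyp2d9, a male-biased cytochrome P450 with near-identical neighbours, the log2 ratio of male to female fold enrichment was 1.253 in B6 and -0.93 in CAST. The pileup there was 154 and 47 in B6 males and females and 210 and 184 in CAST. At Pmepa1, an inhibitor of TGF-beta signalling, the log2 ratio of B6 to CAST was -0.69 in males and 0.73 in females by fold enrichment, and -0.91 and 0.70 by pileup, from 63 and 89 fragments in B6 males and females and 126 and 49 in CAST. At Arhgef37 the log2 ratio of male to female pileup was 0.85 in B6 (68 and 37) and -0.76 in CAST (70 and 98). At Kbtbd12 it was 0.61 in B6 (191 and 123) and -0.59 in CAST (150 and 186). In CAST, Arhgef37 and Kbtbd12 passed 1.5-fold only with the centring shift of 0.28. Scaling by the lowest background removes 0.08 instead, which leaves both within 1.5-fold in CAST, in the same direction.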

How the results depend on the processing

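No paired analysis was possible because the replicate numbers in the titles belong to livers that were pooled in each peak list. For the same reason no liver could be left out. Of 160 alternative values 62 stayed near the reported one, 98 moved and 0 reversed, and the cause of the moves was not tested beyond the construction of each alternative. With a distance limit of 1000 bp the median fold enrichment was 4.72, 4.82, 5.10 and 4.66 in B6 males, females, CAST males and females, and with a width limit of 3000 bp it was 4.49, 4.54, 4.81 and 4.41. Width-weighted means gave 4.42 in B6 females and 4.27 in CAST females. With the most upstream start of each gene, 54.9%, 53.0%, 53.8% and 50.3% of promoter regions covered it. The CpG-rich share was 38.6% with limits of 0.75 and 55%, 66.0% with the first start and 68.2% in a window of 500 bp. The number of promoter regions ran from 12507 to 17642 over 9 alternatives.

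Counts in both strains or sexes are given as male, female, B6 and CAST. By fold enrichment they were 0, 0, 6 and 1 at a threshold of 2, 65, 45, 241 and 203 at 5/4, 117, 66, 221 and 192 by covered bases, 299, 161, 415 and 519 by a percentile difference of 10 points, and 17, 30, 145 and 132 by pileup. Without centring the female count was 1. Single contrasts are given for B6 (male, female), CAST (male, female), males (B6, CAST) and females (B6, CAST). At a threshold of 2 they were 3 and 1, 2 and 0, 7 and 7, and 30 and 20, and at 5/4 they were 509 and 480, 734 and 400, 715 and 666, and 1291 and 796. By covered bases they were 589 and 492, 809 and 363, 601 and 616, and 1040 and 694. By percentile they were 945 and 967, 1602 and 503, 746 and 1366, and 1654 and 1082. By pileup they were 114 and 126, 133 and 132, 251 and 228, and 587 and 400. Without centring, CAST had 132 and 14 and males 44 and 152. The correlation of the sex ratios was 0.14 by pileup. For the pileup counts in both, scaling by the lowest background gave 40, 14 and 87 with 187 for CAST, a threshold of 2 gave 4, 4, 19 and 18, a threshold of 5/4 gave 111, 165, 575 and 439, and a pileup of at least 100 in all lists gave 1, 4, 24 and 34.

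Each list is 1 pool of 5 livers, so spread between mice is unknown and the intervals cover counting error only. Regions missing from any list are absent, which removes the largest differences. A pileup near the lowest background leaves few fragments to compare, and requiring a pileup of 100 in all lists left 1 of the 17 male and 4 of the 30 female regions. CAST coordinates were converted to mm9, and any loss there cannot be told apart from strain.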
